A study of Homo sapiens with 6 samples.

Results

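The genes described here are 10 regulators of G protein signalling (RGS) that lymphoid cells can express, of 17534 genes measured. RGS1, RGS2, RGS13 and RGS18 lie near each other in band 1q31 of chromosome 1, with RGS21 among them. RGS3, RGS10, RGS12, RGS14, RGS16 and RGS19 lie elsewhere. They were chosen by name, with earlier results of the same comparison in view, as genes in which the 1q31 neighbours could be set beside their relatives. Probe sets whose platform annotation names exactly 1 gene were taken, which gave 28 of the 47481 probe sets on the array. The cells were MM.1R, a glucocorticoid-resistant human multiple myeloma line, grown in medium with serum and measured on Affymetrix PrimeView 3' arrays. In the control group (3 arrays) the cells carried shCtrl, a control short hairpin construct delivered by infection. In the other group (3 arrays) they had been given epirubicin hydrochloride, an anthracycline that poisons topoisomerase II, which the submitters added to stop proliferation. The labels do not say that the epirubicin cells carried the vector, so the effects of drug and vector cannot be told apart. No source used here gives a dose or duration. All cells are of 1 line, and no label ties a group's arrays to separate cultures, so the errors measure only the spread between these arrays, which may be technical.

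RGS proteins speed the hydrolysis of GTP by the alpha subunit of heterotrimeric G proteins and so shorten the signal that a receptor sends after binding its ligand. In B cells and plasma cells such receptors include those for chemokines, which guide cells between follicle, blood and bone marrow. Several RGS genes are themselves switched on and off quickly by stimulation, while the G protein subunits they act on are mostly steady.

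Of the 4 genes of the 1q31 cluster, RGS1, RGS13 and RGS2 were higher with epirubicin, by 2.85-fold, 1.97-fold and 1.53-fold, and RGS18 was dim in both groups. Outside the cluster RGS16 was higher as well, by 1.72-fold, so higher values were not limited to the cluster. The remaining 5 genes, RGS3, RGS10, RGS12, RGS14 and RGS19, differed by -0.25 to 0.12 on the log2 scale. In all, 4 of the 10 genes lay past both thresholds of the study's design text, an adjusted p under 0.05 in limma and a fold change of at least 1.3, all 4 upward. Over all genes 6.51% were past both thresholds, 4.36% upward and 2.14% downward. Since the 10 genes were picked with this contrast known, that count is a description and no p is given for any of them. Values below are log2 expression, so a difference of 1 is a doubling, and differences are taken within a probe set. The quartiles and medians of an array serve only to say how dim a probe set is, which is no detection call.

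The promoters of the genes that were higher, and of RGS18 beside them, are shown because the cluster's members lie within 651 kb of each other and yet have start regions of different kinds. Each is the 250 bases before the start site, from RefSeq's GRCh38.p14 annotation, written 5′ to 3′ on the gene's own strand. RGS1 lies at chr1:192575523-192575772 (plus strand), RGS2 at chr1:192808789-192809038 (plus), RGS13 at chr1:192635897-192636146 (plus), RGS18 at chr1:192158212-192158461 (plus) and RGS16 at chr1:182604390-182604639 (minus). Capitals mark matches to the motifs searched.
RGS1: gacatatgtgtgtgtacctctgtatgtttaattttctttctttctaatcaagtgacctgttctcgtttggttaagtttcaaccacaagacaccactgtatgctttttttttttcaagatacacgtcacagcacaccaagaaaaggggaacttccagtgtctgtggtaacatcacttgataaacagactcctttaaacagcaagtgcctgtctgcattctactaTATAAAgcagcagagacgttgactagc
RGS2: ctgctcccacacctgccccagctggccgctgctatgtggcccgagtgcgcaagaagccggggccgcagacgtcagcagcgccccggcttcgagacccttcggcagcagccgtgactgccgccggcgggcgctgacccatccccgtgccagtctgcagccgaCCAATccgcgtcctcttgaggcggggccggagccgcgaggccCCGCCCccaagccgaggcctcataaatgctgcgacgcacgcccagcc
RGS13: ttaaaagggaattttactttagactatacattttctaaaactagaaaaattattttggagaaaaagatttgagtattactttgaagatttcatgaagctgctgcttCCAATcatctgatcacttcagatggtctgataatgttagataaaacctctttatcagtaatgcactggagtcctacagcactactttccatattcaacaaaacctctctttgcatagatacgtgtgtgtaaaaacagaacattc
RGS18: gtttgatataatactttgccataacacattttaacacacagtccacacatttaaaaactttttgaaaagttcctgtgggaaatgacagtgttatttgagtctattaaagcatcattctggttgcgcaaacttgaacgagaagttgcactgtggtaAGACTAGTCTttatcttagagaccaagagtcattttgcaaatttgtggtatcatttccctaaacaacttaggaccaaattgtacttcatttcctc
RGS16: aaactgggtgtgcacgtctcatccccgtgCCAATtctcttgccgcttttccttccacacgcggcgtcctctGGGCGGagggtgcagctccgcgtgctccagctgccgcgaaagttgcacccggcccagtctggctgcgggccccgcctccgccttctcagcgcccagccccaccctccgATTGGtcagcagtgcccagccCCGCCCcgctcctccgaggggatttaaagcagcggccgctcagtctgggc

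The RGS1, RGS13 and RGS18 promoters were poor in G and C, at 39.2%, 32% and 34.8%, against a median of 58% over 35116 promoters of this length. RGS2 and RGS16 were rich, at 72.8% and 68.4%, and held 28 and 22 CpG pairs, where RGS1, RGS13 and RGS18 held 3, 1 and 2. The 4 genes that were higher with epirubicin thus fell on both sides of the median. Both strands were searched for 8 motifs: the TATA box (TATAAA), the CCAAT box (CCAAT), the GC box (GGGCGG), the cAMP response element (TGACGTCA), the AP-1 site (TGANTCA), the octamer (ATTTGCAT), the NF-kB site and the p53 decamer. Matches of different motifs did not overlap in the promoters shown. A TATA box lay at -27 to -22 from the RGS1 start and in 10.7% of all promoters. RGS2, RGS13 and RGS16 each held a CCAAT box, as did 32% of all promoters, and RGS2 and RGS16 a GC box, found in 42.6%. The p53 decamer, present in 5.57%, matched in RGS18, from -95 to -86. No motif was shared by all 4 promoters of the genes that were higher. These matches describe letters only. The other 5 genes had 15 start sites in the table, and their promoters ran from 42.8% to 80.4% G and C. Among these the p53 decamer matched in RGS10 and RGS12, and the TATA box and CCAAT box in RGS3. The GC box matched in RGS3, RGS10, RGS12 and RGS19.

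RGS1, which restrains chemokine receptor signalling in B and T lymphocytes, had the largest difference of the 10. Its brighter probe set read 7.89, 7.95 and 8.02 in the control arrays and 9.44, 9.46 and 9.49 in the epirubicin arrays. The groups were far apart compared with the spread within them (7.95 ± 0.07 and 9.46 ± 0.03, SD, n = 3), and the difference was 1.51 (SE 0.04). A dimmer probe set of RGS1 read 4.83, 4.73 and 4.62 in control arrays and 5.52, 5.43 and 5.29 with epirubicin. It was higher in every epirubicin array too, but by 0.69 (SE 0.08), so the mean over both probe sets was 1.10.

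RGS13, a short RGS protein known from germinal centre B cells and mast cells, has 1 probe set. Its levels were 4.57, 4.88 and 4.72 in control arrays and 5.83, 5.70 and 5.57 in epirubicin arrays. All control values lay under the array medians (5.52 to 5.57), and the epirubicin values reached just above them. The difference was 0.98 (SE 0.09), with the largest within-group spread of the 4 genes that were higher (SD 0.15 and 0.13, n = 3).

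RGS2, which acts preferentially on the alpha subunit Gq and is induced by many stimuli, read 9.42, 9.42 and 9.44 in control arrays and 10.06, 10.04 and 10.02 with epirubicin. Arrays within a group differed by at most a few hundredths. The difference was 0.61 (SE 0.03), on the only probe set of the gene.

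RGS18, best known from platelets and megakaryocytes, lay at 2.36, 2.36 and 2.29 in control arrays and 2.42, 2.57 and 2.49 in epirubicin arrays. All 6 values are under the arrays' lower quartiles (3.84 to 3.90). The epirubicin values were all the higher ones, by 0.16 (SE 0.05), but the other RGS18 probe set differed by -0.01 with overlapping groups. Without detection calls, whether any RGS18 transcript was measured is not known. For the 1q31 genes as a group the median difference was 0.79, beside 0.02 over all genes.

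**Figure D1:**
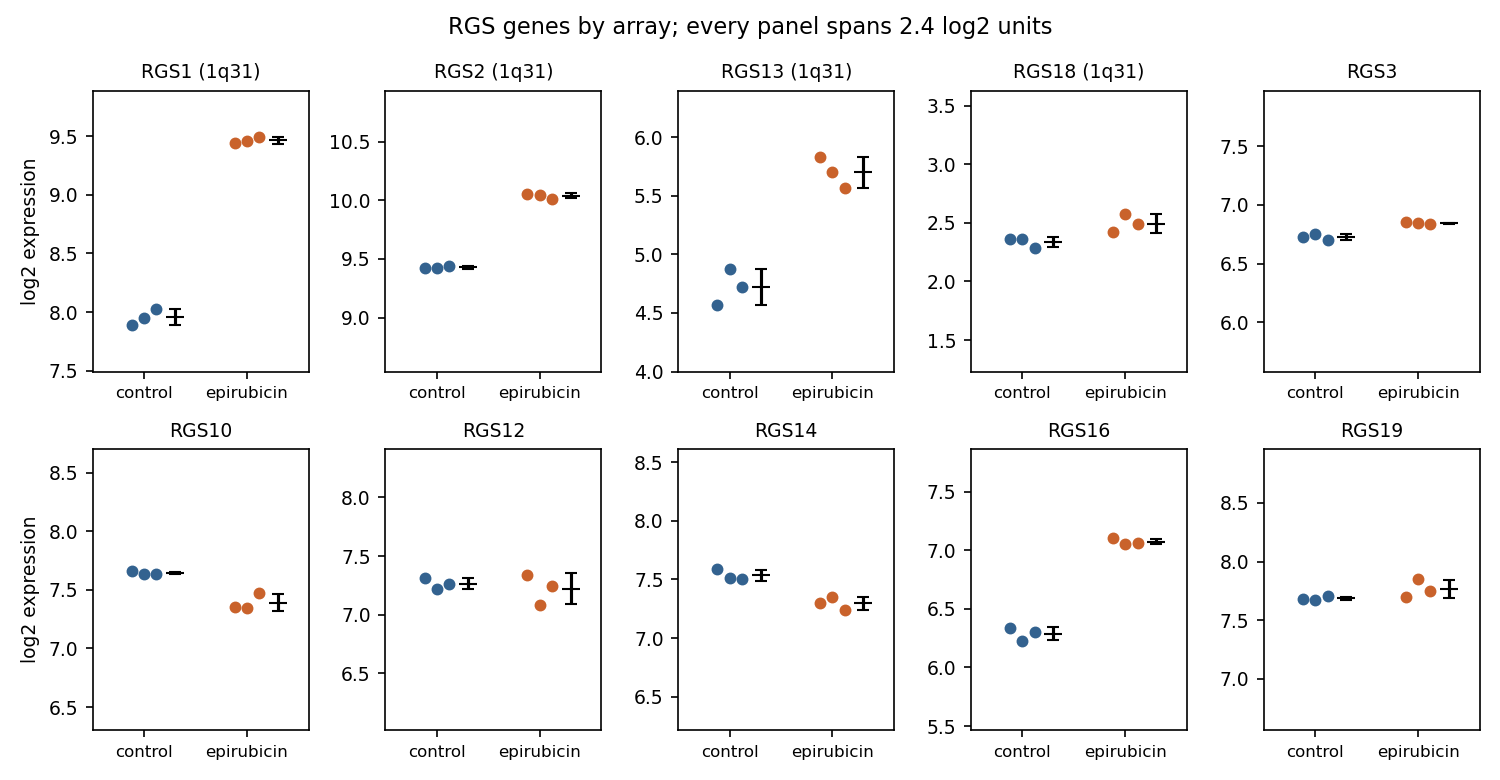
Log2 expression (y axis) of the 10 RGS genes in 3 control arrays (blue) and 3 epirubicin arrays (orange), with the group mean and SD in black, each panel spanning the same log2 range. RGS1, RGS2, RGS13 and RGS16 show clear gaps between the groups, with RGS1 moving from 7.95 to 9.46, while RGS12 and RGS19 overlap.

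RGS16, on chromosome 1 but outside the cluster, likewise limits chemokine receptor signalling in lymphocytes and has been described as inducible by p53. Its brightest probe set read 6.33, 6.23 and 6.30 in control arrays and 7.10, 7.06 and 7.07 with epirubicin. The gap between the groups was wide, with a difference of 0.79 (SE 0.04). Of its 4 probe sets, 3 were past both thresholds, with differences of 0.79, 0.82 and 0.86. The dimmest read 4.02 ± 0.06 and 4.10 ± 0.11 (SD, n = 3), and its groups overlapped.

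RGS10 and RGS14 were lower in every epirubicin array, though under the fold threshold. RGS10, a small RGS protein of leukocytes that acts on Gi subunits, read 7.66, 7.64 and 7.64 in control arrays and 7.35, 7.35 and 7.47 with epirubicin. The groups did not overlap and differed by -0.25 (SE 0.04). RGS14, a larger protein that also carries Ras-binding and GoLoco domains, read 7.59, 7.51 and 7.51 in control arrays and 7.30, 7.35 and 7.24 with epirubicin. Its difference was -0.24 (SE 0.04), and its dimmer probe set gave -0.23.

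RGS3, RGS12 and RGS19 showed the smallest differences. RGS3, which acts on Gi and Gq subunits and exists in several isoforms, read 6.72, 6.75 and 6.70 in control arrays and 6.85, 6.84 and 6.84 with epirubicin on its brightest probe set. These groups were apart by 0.12 (SE 0.03), while its other 3 probe sets gave differences from -0.04 to -0.002. RGS12, the multidomain relative of RGS14, had 10 probe sets with differences of -0.17 to 0.18, none past the thresholds. The groups were apart on 4 of them, each with epirubicin higher, and overlapped on 6. Of all genes, read by their brightest probe set, 23.8% were apart with epirubicin higher. On the brightest the control values of 7.31, 7.22 and 7.26 overlapped the epirubicin values of 7.34, 7.08 and 7.24. RGS19, known as a Gi-binding protein of intracellular membranes, read 7.68, 7.67 and 7.70 in control arrays and 7.70, 7.85 and 7.75 with epirubicin, and its groups overlapped too.

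**Figure D2:**
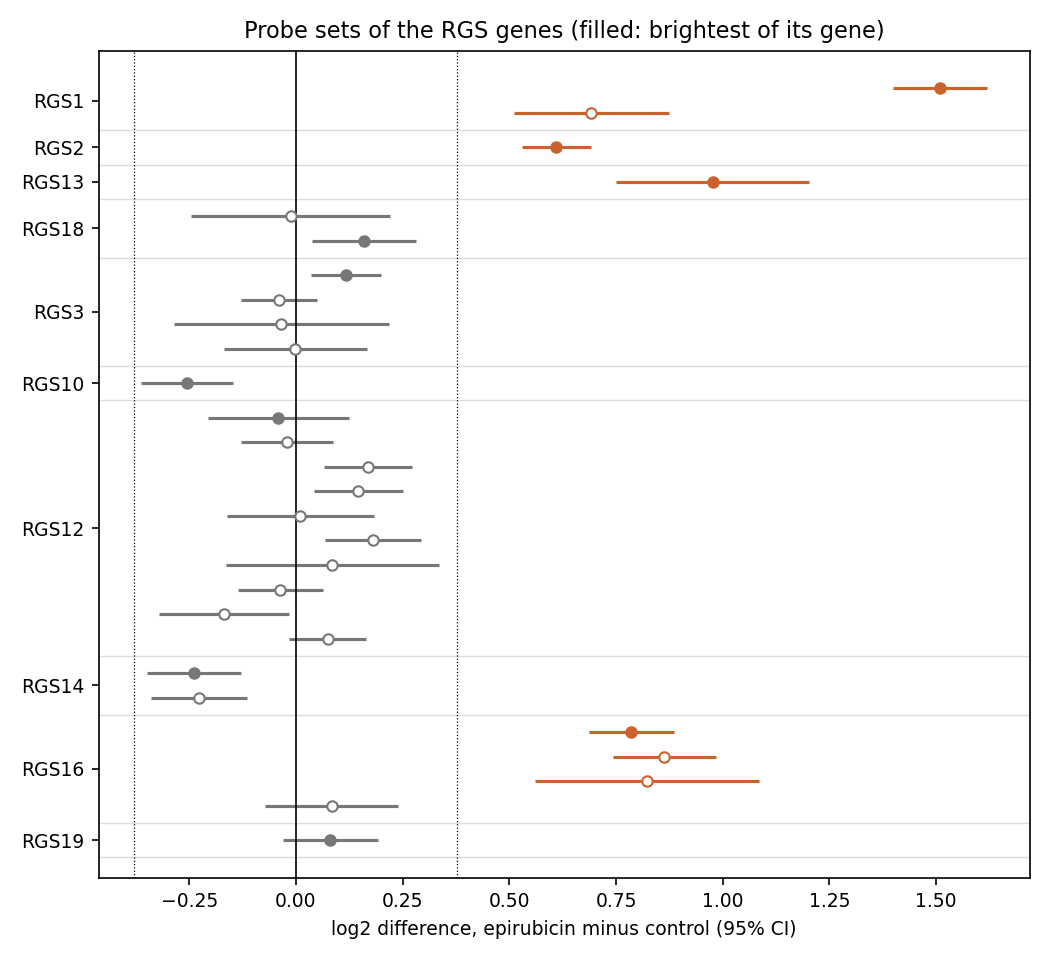
Log2 difference, epirubicin minus control (x axis), with its 95% confidence interval from limma for each of the 28 probe sets, grouped by gene. Filled points are the brightest probe set of a gene, orange points are past both thresholds, and dotted lines mark the 1.3-fold threshold. The probe sets of RGS1 differ in size (1.51 and 0.69), and 3 of the 4 of RGS16 lie together at 0.79 to 0.86.

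Counting probe sets, 7 of 28 were past both thresholds, all upward, beside 6.27% of all probe sets (3.65% upward, 2.62% downward). Counting groups that did not overlap, 8 of the 10 genes had all 3 arrays of 1 group beyond the 3 of the other, 6 with epirubicin higher and 2 with epirubicin lower. Over all genes that share was 43.8%, 23.8% with epirubicin higher and 20.1% with it lower, so groups apart are common in these data. Taken as the change of their mean from the control mean, the 4 cluster genes stood at 0.83, 0.83 and 0.78 in the epirubicin arrays and the other 6 genes at 0.08, 0.06 and 0.08. The cluster values are carried by 3 genes, and the other set holds RGS16. Both follow from the choice of genes and are given without a test.

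The genes next to the RGS cluster were not part of the choice and were tested. They were the nearest 8 measured protein-coding genes on either side in RefSeq order and RGS21, which lies between RGS18 and RGS1. Of these 17 genes, 0 were past both thresholds in limma, 3 had an unadjusted p under 0.05 and 2 an adjusted p under 0.05 at any fold. Over all genes 39.4% had an unadjusted and 29.1% an adjusted p under 0.05, so neither count exceeded the background. HMCN1, PRG4, PDC, PTGS2, BRINP3, B3GALT2, KCNT2, CFHR4 and CFHR2, named for their dimness, read under the lower quartiles (3.84 to 3.90) on every array. For genes so dim the lack of a call says little, so these counts cannot show that the region was unchanged. The median difference of the 17 genes was 0.02, equal at this precision to that of all genes. RGS21, a short RGS gene known from taste cells, was listed at 2.05 ± 0.17 in control and 1.99 ± 0.02 in epirubicin arrays (SD, n = 3), also under the lower quartiles, with overlapping groups (limma, adjusted p = 0.683). The 2 genes under the adjusted threshold, named after their values were seen, were TPR, a nuclear pore protein gene (0.11, SE 0.03, limma adjusted p = 0.0439; -0.03 as the mean over its probe sets), and UCHL5, a proteasome-associated deubiquitinase gene. UCHL5 is the first measured gene past RGS2 and was lower in all 3 epirubicin arrays, at 9.19 ± 0.03 and 8.90 ± 0.02 (SD, n = 3; difference -0.29, SE 0.03, limma adjusted p = 0.00113), opposite in sign to RGS2. Whether the RGS1, RGS13 and RGS2 differences differ from those of the neighbours was not tested.

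**Figure D3:**
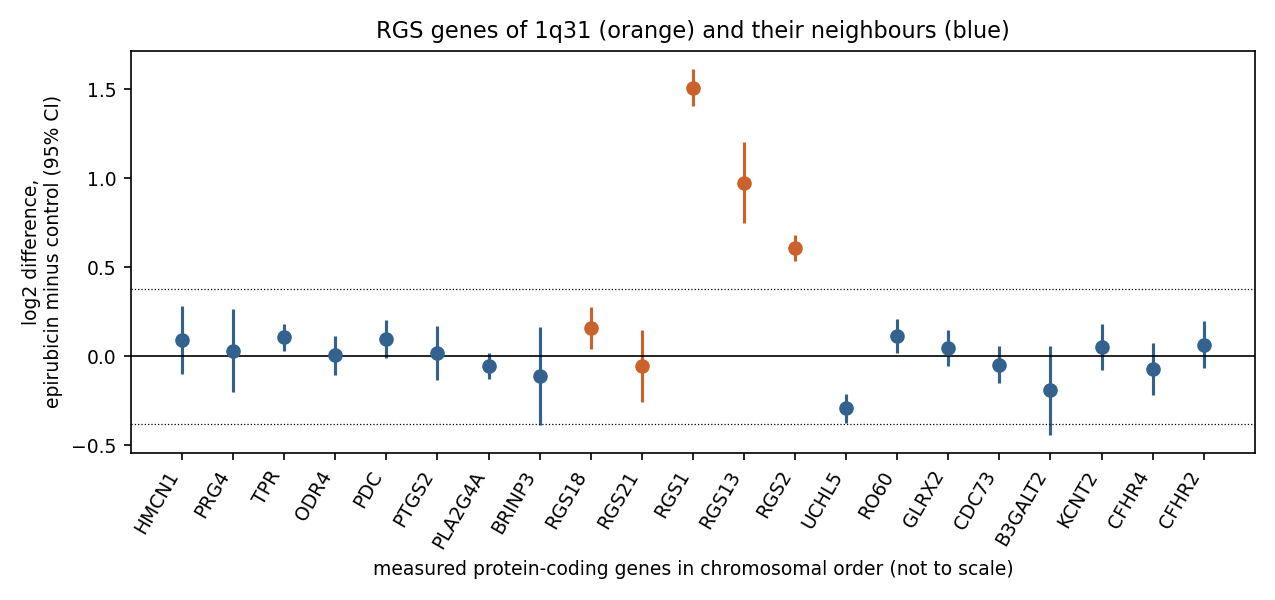
Log2 difference, epirubicin minus control, with its 95% confidence interval from limma (y axis) for the RGS genes of 1q31 (orange) and the 8 nearest measured protein-coding genes on either side (blue), in chromosomal order and not to scale. RGS1, RGS13 and RGS2 lie at 1.51, 0.98 and 0.61, and the neighbours between -0.29 and 0.12.

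The other genes of the RGS family were mostly dim, and 1 of 10 rose. It was RGS20, which acts on the Gz subunit, at 3.86, 4.13 and 4.10 in control arrays and 4.87, 4.44 and 4.33 with epirubicin. The groups were apart (difference 0.52, SE 0.15, limma adjusted p = 0.0388), but the call rested on small margins: it was lost without control replicate 1, 2 or 3 or without epirubicin replicate 1 or 2, with adjusted p of 0.113, 0.0698, 0.0761, 0.0443 (difference 0.36, under the fold threshold) and 0.0634, and with the replicate number as a block (adjusted p = 0.0831). RGS5, known from pericytes, was lower by -0.23 (SE 0.05, adjusted p = 0.0106 in limma), under the fold threshold and on its brightest probe set, while the mean over its 4 probe sets was -0.04. RGS8, a neuronal member, differed by 0.19 (SE 0.06, limma adjusted p = 0.0471). RGS4, RGS6, RGS7, RGS9, RGS11, RGS17 and RGS21 had differences of -0.05 to 0.16 and did not pass. The family's median outside the 10 chosen genes was 0.08.

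The measured genes of G protein subunits, not all of which RGS proteins act on, were not called in either direction. Of 16 alpha subunit genes, 0 were called in limma, 7 had an unadjusted p under 0.05, and 5 an adjusted p under 0.05 with folds under the threshold, 3 above 0 and 2 below, shares (43.8% and 31.2%) near those of all genes (39.4% and 29.1%). GNAI2, the main Gi subunit of lymphocytes, read 9.99, 10.03 and 9.99 in control arrays and 9.77, 9.80 and 9.80 with epirubicin, a difference of -0.21 (SE 0.03, limma adjusted p = 0.00285) and of -0.13 as the mean over 7 probe sets. GNAQ, which encodes the Gq subunit on which RGS2 acts, differed the other way, by 0.17 (SE 0.03, limma adjusted p = 0.0115), and by 0.09 as the mean over 7 probe sets. Both were chosen after their values were seen. Of 16 beta and gamma subunit genes, 0 were called in limma, 2 had an unadjusted p under 0.05 and 0 an adjusted one. Of 16 effector genes, adenylyl cyclases, phospholipases C beta and the G protein-linked PI3 kinase, 0 were called, 5 had an unadjusted p under 0.05 and 4 an adjusted p under 0.05 in limma. The medians of these lists were 0.07, 0.06 and 0.06, beside 0.02 over all genes.

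Among 11 genes of receptor kinases, arrestins, GoLoco proteins and RIC8 chaperones, 1 was lower and 0 higher. It was GPSM2, a GoLoco protein that binds Gi subunits and orients the mitotic spindle, at 7.24, 7.25 and 7.27 in control arrays and 6.83, 6.84 and 6.87 with epirubicin (difference -0.41, SE 0.03, limma adjusted p = 0.000237). In this list 6 genes had an unadjusted and 5 an adjusted p under 0.05 in limma, 2 of the 5 above 0 and 3 below. Those shares, 54.5% and 45.5%, were above the 39.4% and 29.1% of all genes. The list as a whole was not tested. Among 19 receptors of B-lineage cells, 2 were higher and 0 lower. An unadjusted p under 0.05 in limma was found for 9 (47.4%) and an adjusted one for 4 (21.1%), all 4 above 0. PTGER4, a prostaglandin E2 receptor that signals through Gs, rose from 5.44, 5.66 and 5.70 to 6.16, 6.41 and 6.24. The groups were apart by 0.67 (SE 0.09, limma adjusted p = 0.00226). The other of its 2 probe sets was not called, and their mean was 0.39. CCR7, a lymph node homing receptor, was called higher from 3.26 ± 0.14 to 3.71 ± 0.04 (SD, n = 3; limma adjusted p = 0.00447), but it was dimmer than the lower quartile on all 6 arrays, and without control replicate 2 its difference of 0.38 fell just under the fold threshold. CXCR4, the marrow homing receptor whose signal RGS1 and RGS16 are known to restrain, chosen after its values were seen, read 8.47 ± 0.02 and 8.34 ± 0.06 (SD, n = 3) and was not called (difference -0.13, SE 0.04, limma adjusted p = 0.0608; -0.03 as the mean over 4 probe sets). Over the 6 lists together, 3 of 88 genes were higher and 1 lower, a share near that of all genes.

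**Figure D4:**
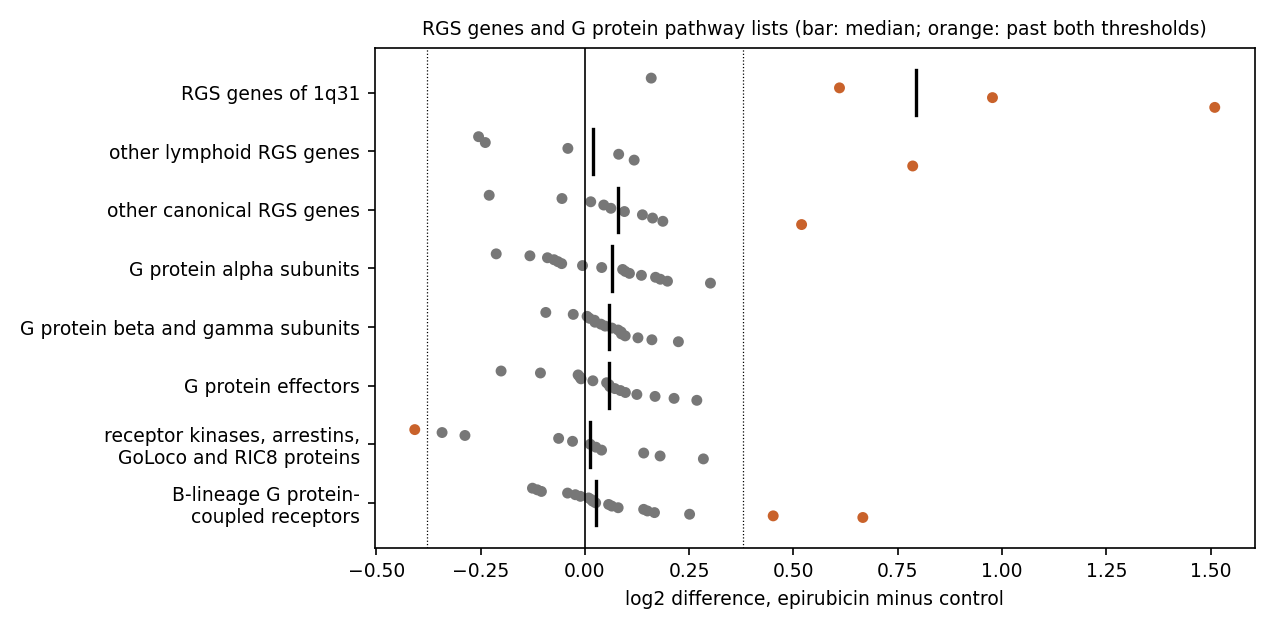
Log2 difference, epirubicin minus control (x axis), for each gene of the 1q31 RGS group, the other chosen RGS genes and 6 lists of the G protein pathway, with list medians as black bars, called genes in orange and the 1.3-fold threshold dotted. The pathway medians lie between 0.01 and 0.08, while the 1q31 median lies at 0.79.

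The genes whose arrays ran most like those of each cluster gene were found by the distance over the 6 arrays between values centred on the control mean, a description in which all genes share the same arrays. This distance picks genes with nearly the same difference, so the matching differences below follow from the method. For RGS1 they were FAS, a death receptor gene (difference 1.58), SORL1, a sorting receptor gene (6.47 to 7.97), and DDIT3, which encodes the stress factor CHOP (1.54), at distances of 0.13 to 0.16 log2 units. For RGS13 they were CREBRF, MYO1E and UBASH3B, with differences of 0.97 to 1.04 and distances of 0.18 to 0.21. For RGS2 they were TPP1, HS1BP3 and CYSTM1, with differences of 0.59 to 0.62 and distances of 0.051 to 0.053. For RGS18 they were RUBCNL, GPALPP1 and LAMTOR3, all at differences of 0.15 to 0.18.

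Of 10 plasma cell markers, 9 lay above the median of every array, with SDC1 at 11.72 ± 0.01, PRDM1 at 11.26 ± 0.01 and XBP1 at 11.84 ± 0.01 in control arrays (SD, n = 3). Of the 10 markers 2 fell past both thresholds, CD38 by 1.18 (SE 0.05, limma adjusted p = 2.57e-05) and IRF4 by 0.49 (SE 0.03, limma adjusted p = 0.000114). With the fold threshold set aside, 6 of the 10 passed on adjusted p in limma (60%, beside 29.1% of all genes). Of these 4 lay below 0 and 2 above. XBP1 (-0.24, limma adjusted p = 0.00145) and PRDM1 (-0.12, limma adjusted p = 0.0208) were among the 4. The 2 above, named after their values were seen, were POU2AF1 (0.25) and SLAMF7 (0.23). Markers of other cell types, among them those in which RGS13 and RGS18 are known, were called in 1 case. Of 7 platelet and megakaryocyte markers 0 were called in limma (1 at an unadjusted p under 0.05), and the sum of their log2 values ran from 28.5 to 28.8 in control and 28.6 to 28.9 in epirubicin arrays. Of 4 mast cell markers 0 were called (0 at an unadjusted p under 0.05 in limma), 3 were dimmer than the lower quartile on all 6 arrays, and the sums ran from 12.6 to 12.9 and from 12.8 to 13.2. Of 6 mature B cell markers 1 rose, the germinal centre factor gene BCL6 (0.55, SE 0.10, limma adjusted p = 0.00865), on 1 of 5 probe sets and not as their mean (0.23), with sums of 38.3 to 38.4 in control and 39.4 to 39.6 in epirubicin arrays. On this list PAX5, CR2 and CIITA, at 9.77, 9.16 and 6.20 in control arrays, were brighter than the median of every array. Of 9 myeloid markers 0 were called (3 at an unadjusted p under 0.05 in limma), with sums of 36.8 to 37.0 and 37.7 to 37.9. The integrin gene ITGAM, which is not on that list, was higher, from 3.25 ± 0.09, under the lower quartiles of the arrays, to 6.99 ± 0.01 (SD, n = 3; limma adjusted p = 6.56e-07). For T and NK cells 0 of 8 markers passed both thresholds in limma (1 had an unadjusted p under 0.05), with sums of 38.1 to 38.5 and 38.4 to 38.8. The part of these markers in the RGS differences was not tested. In bulk RNA such as this, a change in the number of cells of a kind and a change in RNA per cell cannot be told apart.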

How the data were processed

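RNA of 6 MM.1R samples had been hybridised as biotin-labelled cRNA to PrimeView arrays, 3 per group by the sample titles. The authors' deposited log2 expression values, 1 per probe set and array, were used as they stood. That they are on a log2 scale follows from their range (1.41 to 13.73) alone. The submitters' processing notes name the affy package; no source used here gives the background correction, normalization or probe summary. The medians of the arrays ranged from 5.52 to 5.57. Scan dates and detection calls were not used here, and precision is limited by the number of arrays. Arrays of the same group correlated at 0.998 across probe sets.

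The platform annotation gave 43976 probe sets 1 symbol, 1558 several and 1947 none; 43954 of the 43976 matched the RefSeq gene table (GRCh38.p14) by Entrez number and took its symbol. Each of 17534 genes was read by its probe set with the highest mean. The comparison used limma 3.58.1 (lmFit, eBayes, no covariate; R 4.3.3), with Benjamini-Hochberg adjustment over all genes; a call needed a 1.3-fold change or more and an adjusted p under 0.05. The fit was tested on simulated data. The members, lists and tests were chosen with earlier results of these data known. Genes named are the members, the other RGS genes, up to 3 called genes per direction and list, called neighbours, the 3 nearest profiles per cluster gene and 4 plasma cell markers; others are marked where they appear. CD38, BCL6, PAX5, CR2, CIITA and ITGAM were named after their values were seen. Promoters were from RefSeq, and all 10 members matched.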

Additional observations from a re-analysis of the deposited data

How the results depend on the processing

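Under 12 alternatives, 6 of which each left out 1 array, 4 RGS genes were called higher and 0 lower every time. The filter on dim probe sets kept a gene if the mean of either group lay above the median of all values (5.54). RGS18 had no value under this filter. RGS13 passed it only through its epirubicin mean (5.70, with 4.72 in control), so its call there adds no support. As the genes were picked with this contrast known, the repeated count is a description. RGS1 ran from 1.10, its mean over probe sets, to 1.54, RGS2 from 0.58 to 0.64, RGS13 from 0.90 to 1.05 and RGS16 from 0.64 to 0.81. No sign turned in a called value, and 7 values moved by more than 1 SD between replicates. Without the fold threshold 2744 genes were higher and 2362 lower, against 765 and 376 with it; leaving out arrays gave 723 to 807 and 363 to 404. Called pathway genes that were higher numbered 3. They numbered 4 with the mean over all probe sets of a gene and 1 among genes above the median of all values. When arrays were left out they numbered 1 to 3, with 1 without control replicate 2, which removed RGS20 and CCR7. Centring each array on its median gave 646 higher and 485 lower genes. Arrays with the same replicate number did not deviate together (r = -0.06, -0.0004 and -0.007), and none of the 3 control arrays correlated best with its own number. With the replicate number as a block 755 genes were higher and 372 lower, and 2 pathway genes higher. The background treatment, which no source used here gives, could not be varied, so its effect on dim probe sets, RGS13 and RGS18 among them, was not tested.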
